A study of Mus musculus with 18 samples.

Results

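The integrated stress response and the unfolded protein response were followed here through 10 genes in mouse splenocytes: Atf4, Ddit3 and Atf3, which encode transcription factors of the integrated stress response, Trib3, Chac1, Sesn2 and Asns, which act downstream of them, and Xbp1, Hspa5 and Herpud1 of the endoplasmic reticulum. The genes were taken by symbol from the 47729 reference genes that every table lists, and all 10 were among the 11436 protein-coding genes tested. The unit is FPKM, in which fragments are scaled by gene length and library size, and this scale allows levels of different genes to be set side by side. All mice were labelled as female C57BL/6J of 4 to 6 weeks the tissue as spleen and the cell type as splenocyte. The 3 N samples came from naive mice and the 3 LM samples from mice immunized and boosted with LPPC/MP. LPPC, made of lipid, PEG and PEI, is a carrier that takes up proteins on its surface, and MP stands for proteins from dendritic cell membranes. After LPPC/MP, the mice of the 6 LMA samples were given LPPC/MP/CD28, whose antibody binds the costimulatory receptor CD28, and those of the 6 LMS samples LPPC/MP/CD152, whose antibody binds the inhibitory receptor CTLA4. For both antibodies, the paper separates mice given an initial antibody treatment from mice given a repeat. The sample labels do not carry this difference, so the 6 samples of LMA, and those of LMS, may mix both courses. The spread within LMA and LMS may therefore include it. No group received LPPC/MP without antibody in that step, so antibody, further doses and time cannot be told apart in comparisons of LMA or LMS with LM. The protocol fields attached to the labels describe melanoma tumours, whereas the methods of the study describe splenocytes. Separate animals are not stated for the samples of a group, and the p-values therefore cover only the spread among samples, which may be technical.

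Several kinases, which sense unfolded protein in the endoplasmic reticulum, lack of amino acids, lack of haem or double-stranded RNA, phosphorylate the translation factor eIF2. General translation then falls while ATF4 is translated better, and ATF4 drives genes of amino acid supply and, with CHOP (the product of Ddit3), genes of redox control and cell death. The unfolded protein response has, besides the eIF2 kinase PERK, the sensors IRE1, which splices the Xbp1 mRNA, and ATF6, and both raise chaperones and degradation factors of the endoplasmic reticulum. In the spleen, XBP1 is best known for the secretory programme of plasma cells, and ATF3 for its induction in stimulated macrophages.

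The samples of N and LMS fell into sets that their group does not explain. The results for the 10 genes and the counts or median differences of pathway lists are therefore also given by set. Eif2s3y, a Y-linked gene, was listed at 0 FPKM in N 1, N 2, LMS 2 and LMS 5 and stood between 31.0 and 43.0 FPKM in the other 14 samples, although all mice were labelled as female. The 9 B cell markers summed to 1430 to 1870 FPKM in these 4 samples, to 29.9 to 320 FPKM in N 3 and LMS 1, 3, 4 and 6, and to 205 to 340 FPKM in LM and LMA. The 9 T cell markers summed to 408 to 655, 6.62 to 71.2 and 59.2 to 126 FPKM in the same order. The 9 macrophage and monocyte markers summed to 374 to 433, 3370 to 3780 and 2200 to 2410 FPKM, most of it from Lyz2 (2589 to 2888 FPKM in N 3 and LMS 1, 3, 4 and 6), and without Lyz2 to 107 to 126, 784 to 893 and 816 to 922 FPKM. The macrophage marker Mertk went the other way, at 7.37 to 7.99, 0.136 to 0.737 and 0.873 to 1.64 FPKM. The 9 neutrophil markers summed to 270 to 545, 26.1 to 307 and 1530 to 2920 FPKM. The plasma cell markers other than Xbp1, 7 in number, summed to 318 to 895, 24.9 to 244 and 218 to 318 FPKM, and the 8 markers of red blood cell precursors to 2520 to 84000, 115 to 1180 and 1370 to 7080 FPKM. No marker of these 6 lists was at 0 in every sample of any of these sets. Labelled as splenocytes, N 3 held the lymphocyte markers Cd79a at 9.60 and Cd3e at 0.843 FPKM, against 517 and 68.8 FPKM in N 1. In bulk RNA, fewer cells of a type and less RNA per cell cannot be told apart. The aligned sequence came to 5.21 to 7.92 gigabases per sample.

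Response elements of the pathway lie in the proximal promoters of several of the 10 genes, and they are shown because these genes are described together below. The windows are those of RefSeq on GRCm38.p6, with 250 bases before and 50 after the start, and held all 10 genes. Searched on both strands were the C/EBP-ATF response element (CARE, TGATGNAA), the ER stress response elements ERSE (CCAAT, 9 bases of any kind and CCACG) and ERSE-II (ATTGG, 1 base of any kind and CCACG), and the unfolded protein response element UPRE (TGACGTGG), none of whose matches overlapped another. CARE is found in 3.97% of all 32851 promoters of this length, ERSE in 0.119%, ERSE-II in 0.0365% and UPRE in 0.676%. CARE matched in Atf3, Trib3, Chac1, Asns and Herpud1, ERSE in Hspa5 and ERSE-II in Herpud1, while these letters were not in the windows of Atf4, Ddit3, Sesn2 and Xbp1. Each stretch is given 5′ to 3′ on the strand of its gene, with the matches in capitals, at chr1:191183376-191183503 (minus strand) for Atf3, chr2:152344028-152344057 (minus) for Trib3, chr2:119350992-119351116 (plus) for Chac1, chr6:7693214-7693243 (minus) for Asns, chr2:34772020-34772049 (plus) for Hspa5 and chr8:94386257-94386428 (plus) for Herpud1. The matches of Trib3, Asns and Hspa5 lie in annotated exons, the others upstream of the start in no annotated exon. That of Atf3 lies upstream of an internal start, within the annotated gene, which begins at chr1:191218039 on the minus strand. A match describes letters and shows no binding.
Atf3, 1 CARE: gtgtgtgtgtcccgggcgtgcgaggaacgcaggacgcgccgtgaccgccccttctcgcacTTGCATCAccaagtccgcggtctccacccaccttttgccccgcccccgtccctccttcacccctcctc
Trib3, 1 CARE: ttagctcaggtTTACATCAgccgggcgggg
Chac1, 1 CARE: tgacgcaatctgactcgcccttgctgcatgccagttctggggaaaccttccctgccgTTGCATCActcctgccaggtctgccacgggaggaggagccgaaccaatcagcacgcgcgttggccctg
Asns, 1 CARE: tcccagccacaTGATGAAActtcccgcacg
Hspa5, 1 ERSE: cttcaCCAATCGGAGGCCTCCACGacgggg
Herpud1, 1 CARE and 1 ERSE-II: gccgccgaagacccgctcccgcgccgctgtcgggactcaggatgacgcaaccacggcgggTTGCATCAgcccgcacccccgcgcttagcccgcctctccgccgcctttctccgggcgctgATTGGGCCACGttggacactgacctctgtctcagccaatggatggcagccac

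Hspa5 was the most abundant of the 10 transcripts, with a mean of 296 FPKM over all 18 samples, followed by Atf4 at 114, Xbp1 at 74.9, Asns at 54.1, Atf3 at 42.1, Ddit3 at 35.9 and Herpud1 at 25.9 FPKM. Sesn2 at 6.35, Trib3 at 3.90 and Chac1 at 2.17 FPKM were the least abundant. The order among Xbp1, Asns, Atf3 and Ddit3 did not hold within groups. In LM, Asns (69.4 ± 2.98 FPKM, SD, n = 3), Atf3 (67.4 ± 3.33) and Xbp1 (64.9 ± 2.17) differed from their neighbours by less than the larger SD of the pair, and in N the SD of Atf3, of Asns and of Chac1 was larger than the mean. The lowest read depth over a gene was 1.36-fold coverage, for Chac1 in an LMS sample, and Hspa5 was covered 501-fold or more in every sample.

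**Figure D1:**
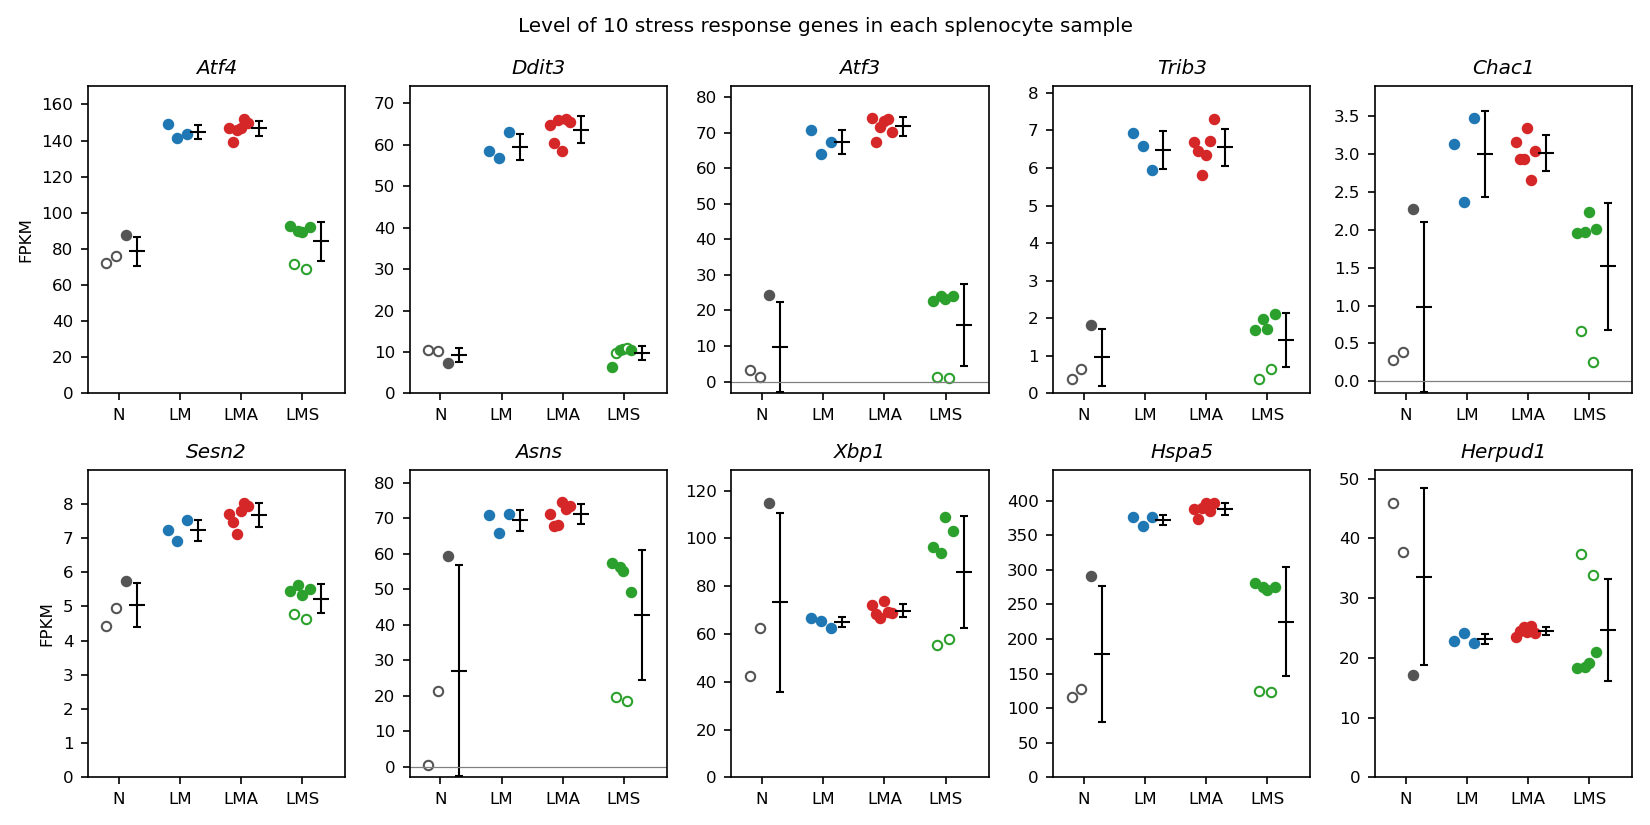
FPKM of the 10 genes in each sample of N, LM, LMA and LMS, with open points for N 1, N 2, LMS 2 and LMS 5, and with the mean and SD of the group as a bar beside the points. Ddit3 lies between 6.49 and 10.9 FPKM in all 9 samples of N and LMS and between 56.9 and 66.2 FPKM in all 9 of LM and LMA, while the other 9 genes split N and LMS into open and filled points without overlap, with the open points higher for Herpud1 and lower for the rest.

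Ddit3 encodes CHOP, a transcription factor that unresolved stress of the endoplasmic reticulum induces. It was at 10.4, 10.3 and 7.41 FPKM in N 1 to 3 and at 58.5, 56.9 and 63.0 FPKM in LM 1 to 3. In LMA it ranged from 58.6 to 66.2 FPKM with a median of 65.1, and in LMS from 6.49 to 10.9 FPKM with a median of 10.4. All LM and LMA samples stood above all N and LMS samples, and the 4 samples without Eif2s3y (9.87 to 10.9 FPKM) overlapped with the other 5 of N and LMS (6.49 to 10.7 FPKM). Ddit3 rose in LM against N by 2.62 log2 units (standard error 0.16, limma with Benjamini-Hochberg adjusted p = 2.3e-08) and in LMA against N by 2.71 (0.14, adjusted p = 1.8e-09). In LMA against LMS it was higher by 2.66 (0.11, adjusted p = 1.1e-10), a 6.31-fold difference. Ddit3 (ENSMUSG00000025408) lies at chr10:127290774-127296288 of GRCm38 on the plus strand and overlaps the opposite-strand gene Mars by 68 bases. An overlapping annotation of the same name on the same strand covers 2925 bases, and reads could be split between both.

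Atf4 encodes the central activator of the integrated stress response, which is controlled mostly in translation, so that its mRNA does not give its protein. Its mRNA was at 72.0, 76.1 and 87.7 FPKM in N 1 to 3 and at 149, 142 and 144 FPKM in LM 1 to 3. It ranged from 139 to 152 FPKM in LMA (median 147) and from 69.0 to 92.4 FPKM in LMS (median 89.8), again without overlap between LM or LMA and N or LMS. The 4 samples without Eif2s3y, at 69.0 to 76.1 FPKM, lay below the other 5 of N and LMS, at 87.7 FPKM or more. Atf4 rose by 0.88 log2 units in LM against N (standard error 0.11, adjusted p = 6.0e-05) and by 0.90 in LMA against N (0.10, adjusted p = 6.9e-06), and fell by 0.79 in LMS against LM (0.10, adjusted p = 3.3e-05). Atf4 (ENSMUSG00000042406) lies at chr15:80255184-80257540 on the plus strand.

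Atf3 encodes a factor of the same family that ATF4 and inflammatory signals induce. It was at 3.38, 1.31 and 24.2 FPKM in N 1 to 3 and at 70.7, 64.0 and 67.4 FPKM in LM 1 to 3. In LMA it ranged from 67.3 to 74.2 FPKM (median 72.5), and in LMS from 0.966 to 24.0 FPKM (median 22.9). LM and LMA did not overlap with N and LMS, but N 3 and LMS 1, 3, 4 and 6 held 22.5 to 24.2 FPKM and the 4 samples without Eif2s3y only 0.966 to 3.38 FPKM. Atf3 rose by 3.6 log2 units in LM against N (standard error 1.09, adjusted p = 0.0248), by 3.69 in LMA against N (0.94, adjusted p = 0.00698), and was higher by 2.89 in LMA against LMS (0.77, adjusted p = 0.00887). In LMS against LM it fell by 2.80 (0.94, adjusted p = 0.045), a call that was lost without LM 1, LM 2, LM 3, LMS 2 or LMS 5 (adjusted p = 0.13, 0.11, 0.12, 0.074 and 0.069) and with the replicate number as a block (adjusted p = 0.059). The call in LM against N was lost without N 1 (adjusted p = 0.084), N 2 (0.12) or any LM sample (0.068, 0.06 and 0.066), and that in LMA against N without N 2 (adjusted p = 0.059). Atf3 (ENSMUSG00000026628) lies at chr1:191170296-191218039 on the minus strand.

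Trib3 encodes a pseudokinase that ATF4 and CHOP induce and that in turn limits ATF4. It was at 0.396, 0.656 and 1.82 FPKM in N 1 to 3 and at 6.92, 6.58 and 5.94 FPKM in LM 1 to 3. In LMA it ranged from 5.81 to 7.31 FPKM (median 6.57), and in LMS from 0.378 to 2.11 FPKM (median 1.71). LM and LMA lay above every N and LMS sample, and within N and LMS the 4 samples without Eif2s3y (0.378 to 0.656 FPKM) lay below the others (1.69 to 2.11 FPKM). Trib3 rose by 2.38 log2 units in LM against N (standard error 0.38, adjusted p = 3.2e-04) and by 2.39 in LMA against N (0.33, adjusted p = 5.1e-05), and fell by 1.97 in LMS against LM (0.33, adjusted p = 3.9e-04). On log2(FPKM + 0.5), the scale of all these changes, folds of low genes such as Trib3 and Chac1 are understated. Trib3 (ENSMUSG00000032715) lies at chr2:152337422-152344032 on the minus strand.

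Chac1 encodes an enzyme that degrades glutathione and is a target of ATF4, with its CARE further upstream than those of the other genes shown. It was at 0.279, 0.383 and 2.28 FPKM in N 1 to 3 and at 3.13, 2.37 and 3.48 FPKM in LM 1 to 3. In LMA it ranged from 2.65 to 3.35 FPKM (median 2.99) and in LMS from 0.260 to 2.24 FPKM (median 1.97). LM and LMA did not overlap with N and LMS, yet the gap between N 3 (2.28 FPKM) and LM 2 (2.37 FPKM) was smaller than the spread within LM. The 4 samples without Eif2s3y held 0.260 to 0.657 FPKM and the other 5 of N and LMS 1.957 to 2.28 FPKM. Chac1 rose by 1.48 in LM against N (standard error 0.48, adjusted p = 0.0329) and by 1.5 in LMA against N (0.41, adjusted p = 0.0109), and was higher by 0.94 in LMA against LMS (0.34, adjusted p = 0.0437). In LMS against LM its difference of -0.93 (0.41, adjusted p = 0.132) did not pass the test. The call in LMA against LMS was lost without any 1 LMA sample (adjusted p = 0.075, 0.068, 0.068, 0.078, 0.062 and 0.072 for LMA 1 to 6) and without LMS 2 (0.096) or LMS 5 (0.092). Those against N were lost without N 1 or N 2 (adjusted p = 0.15 and 0.13 for LM, 0.084 and 0.07 for LMA), and for LM also without LM 1, 2 or 3 (0.089, 0.055 and 0.1). Chac1 (ENSMUSG00000027313) lies at chr2:119351229-119354381 on the plus strand.

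Sesn2 encodes sestrin 2, a leucine-binding inhibitor of mTORC1 signalling. It was at 4.44, 4.95 and 5.74 FPKM in N 1 to 3 and at 7.24, 6.92 and 7.53 FPKM in LM 1 to 3. It ranged from 7.11 to 8.03 FPKM in LMA (median 7.76) and from 4.64 to 5.63 FPKM in LMS (median 5.402). LM and LMA did not overlap with N and LMS, and within N and LMS the 4 samples without Eif2s3y (4.44 to 4.95 FPKM) lay below the other 5 (5.34 to 5.74 FPKM). Sesn2 rose by 0.49 in LM against N (standard error 0.10, adjusted p = 0.00184) and by 0.57 in LMA against N (0.08, adjusted p = 9.7e-05), and fell by 0.43 in LMS against LM (0.08, adjusted p = 0.00126). Sesn2 (ENSMUSG00000028893) lies at chr4:132492032-132510501 on the minus strand and shares 6089 bases with the non-coding gene Gm12981 on that strand.

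Asns encodes asparagine synthetase, a classical target of ATF4 in amino acid shortage. It was at 0.678, 21.3 and 59.5 FPKM in N 1 to 3 and at 71.0, 66.0 and 71.3 FPKM in LM 1 to 3. In LMA it ranged from 67.8 to 74.7 FPKM (median 71.9) and in LMS from 18.7 to 57.3 FPKM (median 52.2). LM and LMA lay above all N and LMS samples, but N 3 and LMS 1, 3, 4 and 6, at 49.4 to 59.5 FPKM, were nearer to LM than to the 4 samples without Eif2s3y. Asns rose by 2.64 in LMA against N (standard error 0.81, adjusted p = 0.0194), while the difference of 2.60 in LM against N (0.93, adjusted p = 0.0522) and of 0.88 in LMA against LMS (0.66, adjusted p = 0.351) did not pass. Without N 1 the difference in LMA against N came to 0.99 (adjusted p = 0.12). Asns (ENSMUSG00000029752) lies at chr6:7675169-7693254 on the minus strand.

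Hspa5 encodes BiP, the main chaperone of the endoplasmic reticulum, which binds and restrains the sensors of unfolded protein. It was at 116, 127 and 291 FPKM in N 1 to 3 and at 377, 363 and 376 FPKM in LM 1 to 3. In LMA it ranged from 373 to 397 FPKM (median 389) and in LMS from 123 to 281 FPKM (median 273). LM and LMA did not overlap with N and LMS, and within N and LMS the 4 samples without Eif2s3y (116 to 127 FPKM) lay far below the other 5 (271 to 291 FPKM). Hspa5 rose by 1.19 in LM against N (standard error 0.35, adjusted p = 0.0226) and by 1.25 in LMA against N (0.31, adjusted p = 0.00517), and was higher by 0.87 in LMA against LMS (0.25, adjusted p = 0.0135). Its difference of -0.81 in LMS against LM (0.31, adjusted p = 0.0713) did not pass. The call in LM against N was lost without N 1 (adjusted p = 0.11), N 2 (0.093) or any LM sample (0.063, 0.055 and 0.063). Hspa5 (ENSMUSG00000026864) lies at chr2:34771970-34777547 on the plus strand.

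Xbp1 encodes the factor that IRE1 activates by splicing, and FPKM per gene does not tell the spliced from the unspliced form. It was at 42.5, 62.4 and 115 FPKM in N 1 to 3, at 66.7, 65.6 and 62.5 FPKM in LM 1 to 3, at 66.8 to 73.8 FPKM in LMA (median 68.8) and at 55.3 to 109 FPKM in LMS (median 95.2). N and LMS samples stood on both sides of LM and LMA, the 4 without Eif2s3y at 42.5 to 62.4 FPKM and the other 5 at 93.9 to 115 FPKM. No comparison called Xbp1, with differences from -0.25 in LMA against LMS (standard error 0.21, adjusted p = 0.41) to 0.35 in LMS against LM (0.26, adjusted p = 0.391). Xbp1 (ENSMUSG00000020484) lies at chr11:5520659-5525893 on the plus strand.

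Herpud1 encodes a membrane protein of ER-associated degradation, and its promoter window was alone among the 10 in holding matches to 2 kinds of element. It was at 45.9, 37.7 and 17.2 FPKM in N 1 to 3, at 22.9, 24.1 and 22.4 FPKM in LM 1 to 3, at 23.4 to 25.4 FPKM in LMA (median 24.4) and at 18.3 to 37.4 FPKM in LMS (median 20.1). Its split of N and LMS ran opposite to that of Xbp1, with 33.9 to 45.9 FPKM in the 4 samples without Eif2s3y and 17.2 to 21.02 FPKM in the other 5. No comparison called Herpud1, whose differences lay between -0.42 in LM against N (standard error 0.31, adjusted p = 0.326) and 0.08 in LMA against LM (0.27, adjusted p = 1). Herpud1 (ENSMUSG00000031770) lies at chr8:94386438-94395377 on the plus strand and overlaps the opposite-strand gene Gm15890 by 535 bases.

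Against N, the 3 factors rose in LM and LMA, as did Hspa5, and of the 4 effectors 3 rose in LM (not Asns) and 4 in LMA, while Xbp1 and Herpud1 passed no test. In LM against N, 7 of the 10 genes were higher and 0 lower, where 9.18% of all genes tested were higher and 15.9% lower. In LMA against N, 8 of the 10 were higher and 0 lower, against 13.6% and 21.9% of all genes. The median difference of the 10 genes was 1.34 in LM and 1.37 in LMA, and that of all genes tested -0.11 and -0.13. Without overlap between the groups were 8 of the 10 genes in each comparison, all higher, against 13.2% and 11.8% of all genes higher in that way. Both comparisons share the N samples. The 10 genes and the pathway lists were chosen with earlier results of these data known. Their counts beside all genes, here and below, are therefore a description and no test. In LMS against N, 0 of the 10 genes were called by limma, as were 0% of all genes, and 1 of the 10 (Asns, 1.76, standard error 0.81) had an unadjusted p under 0.05. Of the differences in LMS against N that were measured closely, Ddit3 stood at 0.06 (95% interval -0.21 to 0.33), Sesn2 at 0.05 (-0.11 to 0.21) and Atf4 at 0.09 (-0.10 to 0.29), while that of Atf3, 0.80, had an interval from -1.05 to 2.65. Without N 3, 5 of the 10 genes were called in LMS against N, 4 higher (Asns, Chac1, Hspa5 and Xbp1) and 1 lower (Herpud1), where 12.9% of all genes were called higher and 20.6% lower.

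The antibody groups were compared with LM and with each other. In LMA against LM, 0 of the 10 genes were called by limma, as were 0% of all genes, and none of the 10 had an unadjusted p under 0.05. The differences ran from 0.02 to 0.10, with intervals of -0.18 to 0.37 for Ddit3, -0.18 to 0.21 for Atf4 and -1.76 to 1.94 for Atf3. The fit takes the spread of each gene from all groups together. These intervals and calls therefore also carry the split within N and LMS. Atf3 itself ran from 64.0 to 70.7 FPKM in LM and from 67.3 to 74.2 FPKM in LMA. Xbp1 alone of the 10 did not overlap between LMA and LM, at 66.8 or more against 66.7 FPKM or less, where 2.43% of all genes were higher in LMA in that way. In LMS against LM, 5 of the 10 genes were lower and 0 higher (Ddit3, Atf4, Atf3, Trib3 and Sesn2), against 7.94% and 13.3% of all genes, and Ddit3 fell by 2.56 (standard error 0.14, adjusted p = 4.0e-09). Lower without overlap were 8 of the 10, against 13.6% of all genes. In LMA against LMS, 7 of the 10 were higher and 0 lower, against 11.3% and 19.4% of all genes, and 8 of the 10 were higher without overlap, against 12.4%. Trib3 was higher there by 1.98 (standard error 0.27, adjusted p = 3.0e-05), Atf4 by 0.81 (0.08, adjusted p = 1.6e-06) and Sesn2 by 0.52 (0.07, adjusted p = 2.5e-05).

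**Figure D2:**
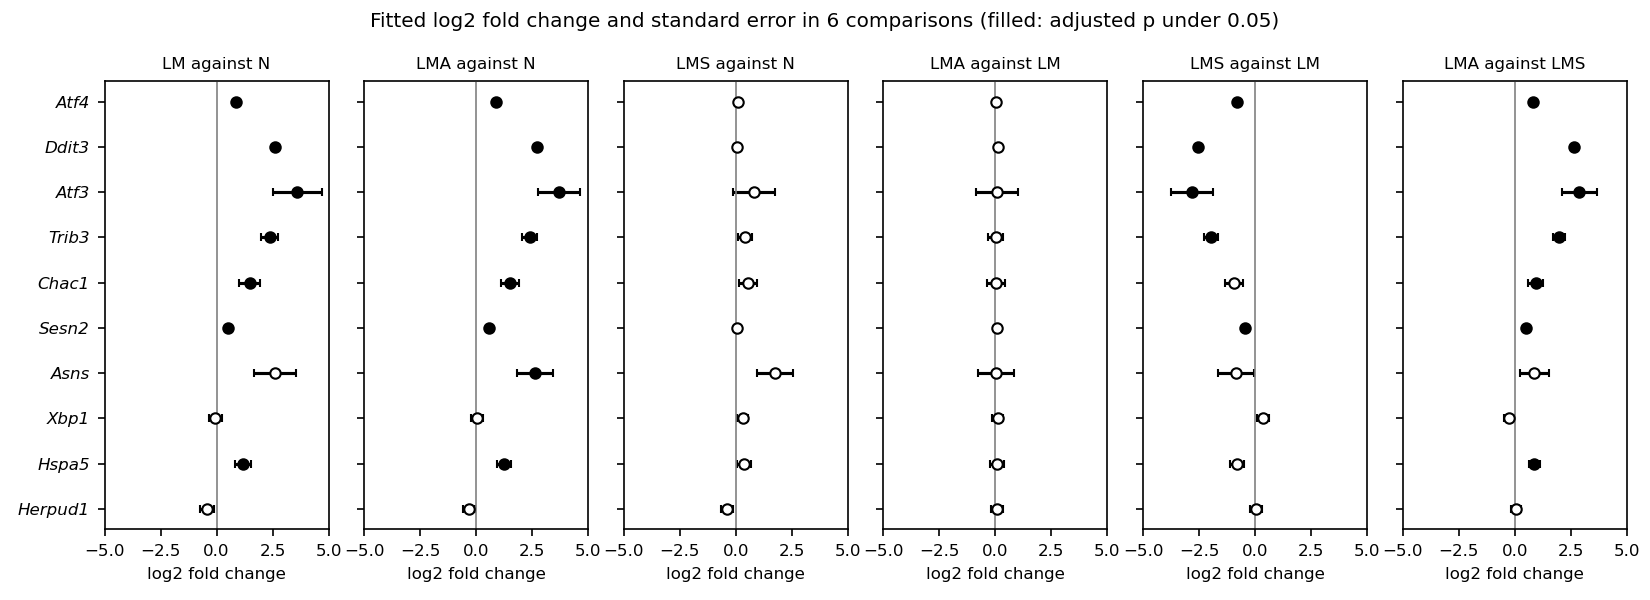
Fitted difference on log2(FPKM + 0.5) with its standard error for each gene in 6 comparisons, filled where the adjusted p is under 0.05. Filled points lie right of 0 in LM against N (7), LMA against N (8) and LMA against LMS (7) and left of 0 in LMS against LM (5), with none in LMS against N and LMA against LM, which share samples with the others.

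The sets of N and LMS samples moved the size of most of these differences, and for Xbp1 and Herpud1 their direction. Without N 1, N 2, LMS 2 and LMS 5, where N is N 3 alone and its spread is taken from the other groups, 8 genes were higher and 1 lower in LMA against N (25.6% of all genes higher, 36% lower), and 9 higher and 1 lower in LMA against LMS (28% and 44%). Without the other set (N 3 and LMS 1, 3, 4 and 6), the counts in LMA against N were 9 higher and 1 lower (35.6% and 44.3%), and 9 higher and 1 lower in LMA against LMS (36.6% and 42.2%). In LMS against LM, 9 of the 10 were lower and 1 higher without the first set (27.6% and 40.5% of all genes), and 7 lower and 1 higher without the other (35.4% and 40.5%). In LM against N, 8 were higher and 1 lower without the first set (25.8% and 34.4% of all genes), and 9 and 1 without the other (34.7% and 42.1%). In LMS against N and in LMA against LM no gene of the 10 was called by limma without the first set (5.27% and 0.577% of all genes called) or without the other (0.0175% and 0.0787%).

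Ddit3 was higher in LMA against LMS by 2.71 (standard error 0.11) without the first set and by 2.56 (0.06) without the other, close to the 2.66 of all samples. Atf4 kept 0.69 (0.03) and 1.05 (0.04), and Sesn2 0.45 (0.04) and 0.65 (0.06). The difference of Atf3 was 1.59 (0.04) and 5.49 (0.20) in the same order, that of Trib3 1.57 (0.07) and 2.81 (0.12), that of Hspa5 0.49 (0.02) and 1.64 (0.04), and that of Asns 0.39 (0.04) and 1.86 (0.73). In LMA against N, Asns differed by 0.26 (standard error 0.07) without the first set and by 3.82 (0.73) without the other. Chac1 in LMA against N stood at 0.33 (0.14, adjusted p = 0.0578) without the first set, which did not pass, and at 2.08 (0.16) without the other. Xbp1 was lower in LMA than in LMS at -0.52 (standard error 0.04, adjusted p = 8.5e-08) without the first set and higher by 0.30 (0.10, adjusted p = 0.0207) without the other. Herpud1 was higher by 0.34 (0.04, adjusted p = 3.5e-06) without the first set and lower, at -0.53 (0.07, adjusted p = 1.8e-05), without the other. The markers of lymphocytes and of macrophages and monocytes given above moved with the same sets, and their part in these differences was not tested. Neutrophil markers moved with LM and LMA instead, at 1530 FPKM or more in both against 545 FPKM or less in N and LMS, and their part was likewise not tested.

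**Figure D3:**
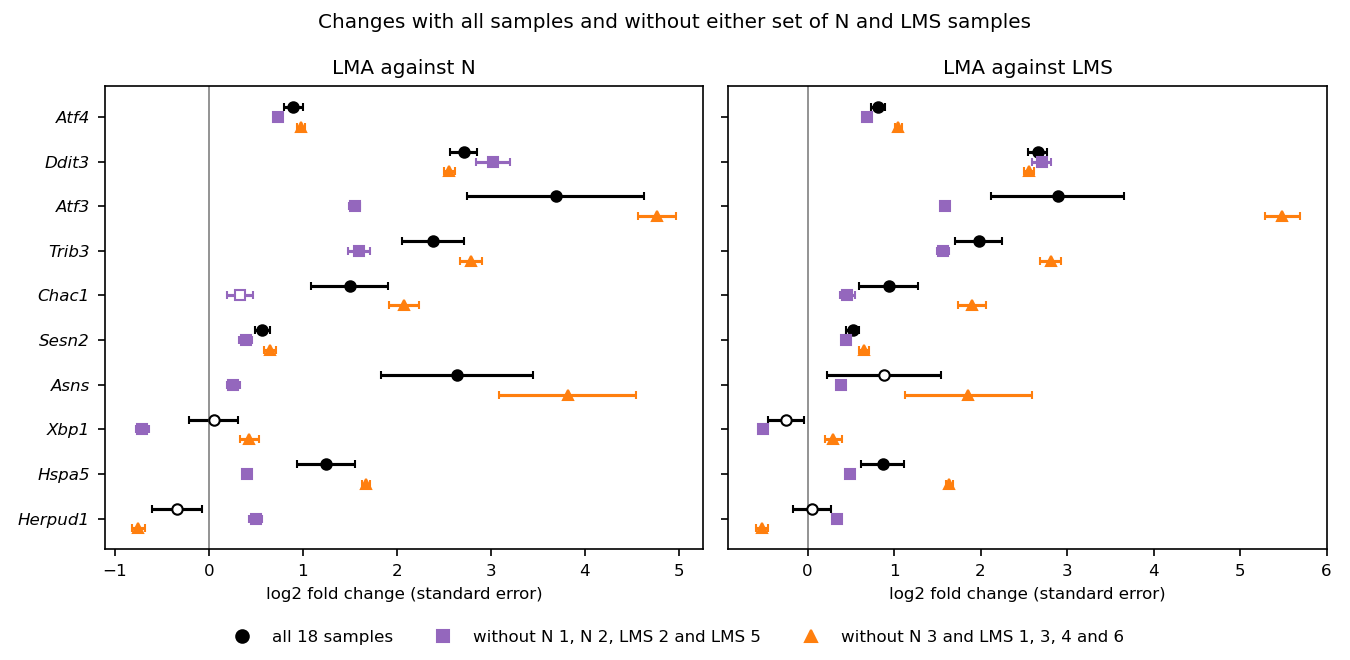
Fitted difference on log2(FPKM + 0.5) with its standard error in LMA against N and LMA against LMS, with all 18 samples and without either set of N and LMS samples, filled where the adjusted p is under 0.05. Ddit3 lies between 2.56 and 3.02 in all 6 fits shown, whereas Xbp1 and Herpud1 change sides between the sets.

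**Figure D4:**
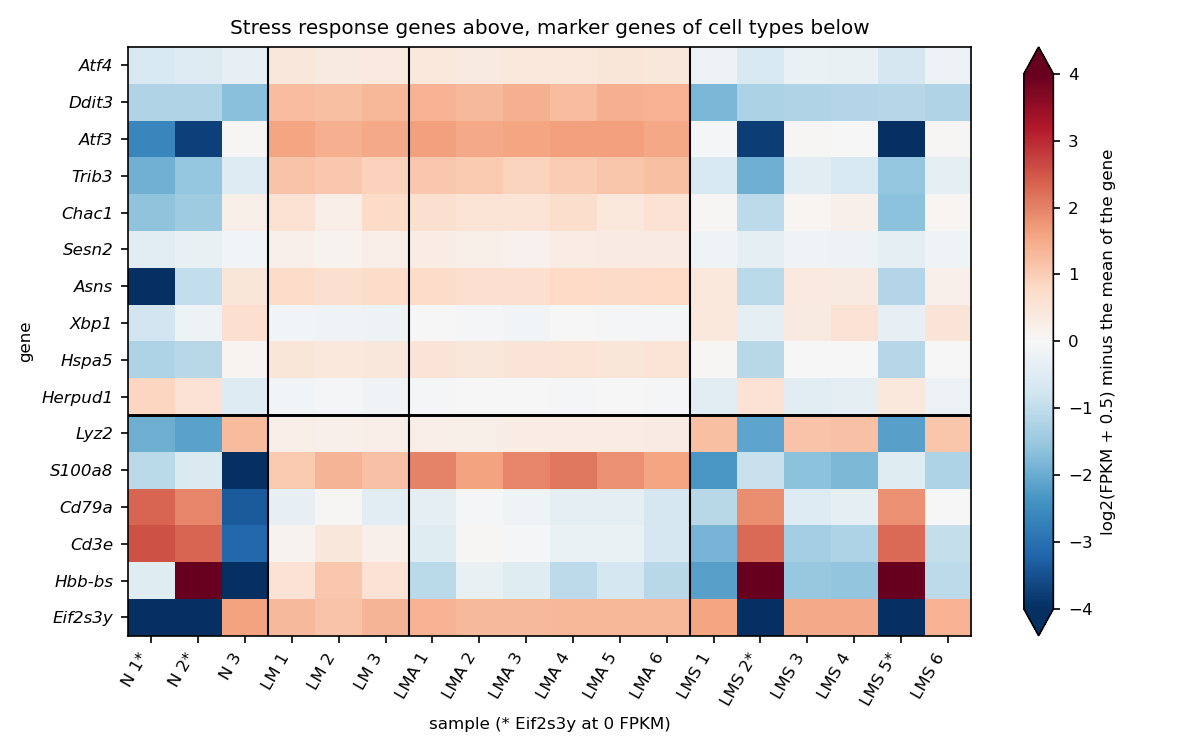
Level of the 10 genes (above the line) and of 6 markers (below) in each sample, as log2(FPKM + 0.5) minus the mean of the gene, with colours that saturate 4 log2 units from the mean and a star for samples with Eif2s3y at 0 FPKM. The starred samples are low in Lyz2 of macrophages and high in Cd79a of B cells and Cd3e of T cells, S100a8 of neutrophils is high in LM and LMA, and Ddit3 follows LM and LMA without a split by star.

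Other genes of the pathway were counted in 7 lists of 102 genes, of which 100 were tested. In LMA against N, 23 were higher and 6 lower, with a median difference of 0.31, where 13.6% of all genes were higher and 21.9% lower. Without the first set named above, N was N 3 alone. The median difference of these 100 genes was then -0.18, and that of all genes -0.09. Without the other set, 63 were higher and 18 lower (median 0.52), where 35.6% of all genes were higher and 44.3% lower (median -0.12). The shares of all genes for each of these fits, here and above, also apply beside the counts of every list below. Leaving out 1 sample gave 12 higher and 7 lower without N 1, 12 and 6 without N 2, and 47 and 13 without N 3. No share of all genes is given for these fits with 1 sample left out, so their counts are a description only. Of the other factors and targets of ATF4 and CHOP, 7 of 14 tested were higher and 1 lower (median 0.78), 8 higher and 4 lower without the first set, and 8 and 2 without the other. Nupr1, a chromatin-associated stress protein, rose by 3.88 (standard error 0.96, adjusted p = 0.0055) from 1.05 to 20.3 FPKM in N to 43.0 to 58.9 FPKM in LMA. Cth, the cystathionine gamma-lyase of cysteine synthesis, rose by 2.62 (0.44, adjusted p = 3.1e-04), from 0.142 to 1.62 FPKM in N to 5.08 to 6.38 FPKM in LMA. The size of both depended on the set. Nupr1 differed by 1.4 without the first set and by 5.12 without the other, and Cth by 1.55 and 3.16. The oxidase gene Ero1l was called in LMA against N (3.24, standard error 1.2, adjusted p = 0.0466), although N 3, at 243 FPKM, lay within the LMA range of 230 to 256 FPKM and N 1 and N 2 held 7.96 FPKM or less. Gdf15, a secreted stress cytokine, was higher in LMA than in LMS by 1.31 (0.16, adjusted p = 1.0e-05), at 0.983 to 2.25 against 0.0643 to 0.385 FPKM. All LMS values of Gdf15 lay below the added 0.5 FPKM, so the size of this difference depends on that constant.

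Of the genes of amino acid synthesis and transport, 4 of 16 were higher and 0 lower in LMA against N (median 0.61). Without the first set their median was -0.42, where that of all genes was -0.09. Without the other set 11 were higher and 1 lower (median 1.15), beside 35.6% and 44.3% of all genes. Psph of serine synthesis was called in LMA against N with all samples at 1.14 (standard error 0.33, adjusted p = 0.0136). Its difference was 0.37 (0.20) without the first set. Mthfd2 of mitochondrial folate metabolism (1.09, adjusted p = 0.0427) was at 9.76, 16.2 and 42.6 FPKM in N 1 to 3 and at 39.0 to 43.2 FPKM in LMA. Aldh18a1 of proline synthesis (0.81, adjusted p = 0.0425) was at 11.6, 13.4 and 30.5 FPKM in N 1 to 3 and at 28.8 to 31.1 FPKM in LMA. For both, N 3 lay within the range of LMA, and without the first set the differences were -0.06 for Mthfd2 (adjusted p = 0.382) and -0.02 for Aldh18a1 (adjusted p = 0.733). Slc3a2, the heavy chain of amino acid transporters, was higher in LMA than in LMS by 0.68 (0.10, adjusted p = 1.0e-04), and by 0.68 and 0.66 without the first and the other set.

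Of the aminoacyl-tRNA synthetases, 6 of 12 were higher and 0 lower in LMA against N (median 0.92), against 3 higher and 6 lower without the first set (median -0.06) and 12 higher and 0 lower without the other (median 1.37). Sars was called at 1.34 (standard error 0.37, adjusted p = 0.0105), and ranged from 26.0 to 80.3 FPKM in N, from 93.4 to 106 FPKM in LMA and from 28.2 to 77.1 FPKM in LMS. Cars (1.32, standard error 0.38, adjusted p = 0.0133) was at 8.82, 11.6 and 33.0 FPKM in N 1 to 3 and at 34.9 to 40.7 FPKM in LMA. Yars (1.14, adjusted p = 0.0209) was at 10.3, 11.02 and 33.4 FPKM in N 1 to 3 and at 33.5 to 36.2 FPKM in LMA. N 3 stood close below LMA for Cars and Yars, and without the first set the differences were 0.31 for Sars (adjusted p = 0.0012), 0.21 for Cars (adjusted p = 0.0398) and 0.07 for Yars (adjusted p = 0.251). In LMA against LMS, 2 of 12 synthetases were higher, where 11.3% of all genes were higher, with 6 higher and 6 lower without the first set and 12 higher and 0 lower without the other. Aars had the smallest adjusted p there (0.68, standard error 0.14, adjusted p = 0.00163).

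Of the chaperones and folding enzymes of the endoplasmic reticulum, 3 of 18 were higher and 2 lower in LMA against N (median 0.35), beside 13.6% and 21.9% of all genes. Without the first set 4 were higher and 10 lower (median -0.29), and without the other 13 higher and 4 lower (median 0.75). P4hb, a protein disulfide isomerase, was called at 2.32 (standard error 0.82, adjusted p = 0.0388), with 54.2, 54.2 and 517 FPKM in N 1 to 3 against 549 to 604 FPKM in LMA. N 3 thus stood near LMA and far from N 1 and N 2, and without the first set the difference of P4hb was 0.16 (adjusted p = 0.0167). Sil1, a nucleotide exchange factor of BiP, was higher by 0.98 (0.20, adjusted p = 0.00165), and Dnajc3, a co-chaperone of BiP and an inhibitor of eIF2 kinases, was lower at -0.77 (0.13, adjusted p = 2.2e-04).

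Of the genes of ER-associated degradation and export, 1 of 18 was higher and 0 lower (median -0.04), against 5 higher and 6 lower without the first set and 6 and 6 without the other. That gene was Sel1l, an adaptor of the HRD1 ubiquitin ligase, which rose by 1.2 (standard error 0.10, adjusted p = 4.3e-07) and stood at 37.4 to 42.4 FPKM in LMA, above 14.4 to 20.5 FPKM in N and 16.0 to 20.6 FPKM in LMS. Of the sensors IRE1 and ATF6 and their proteases, 1 of 7 was higher and 1 lower, against 2 and 3 without the first set and 4 and 1 without the other. Ern1, which encodes IRE1, rose by 0.84 (0.08, adjusted p = 1.7e-06), from 3.66 to 4.19 FPKM in N to 6.70 to 7.92 FPKM in LMA, and Mbtps1, which encodes the site-1 protease that cleaves ATF6, was lower at -0.67 (0.08, adjusted p = 1.3e-05). Of the eIF2 kinases, phosphatase and exchange factor subunits, 1 of 15 was higher and 2 were lower, against 3 and 10 without the first set and 9 and 4 without the other. They were Eif2b2 at 0.26 (0.07, adjusted p = 0.00857), Ppp1r15b at -0.62 (0.16, adjusted p = 0.00781) and Eif2b4 at -0.56 (0.11, adjusted p = 0.00121).

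Of the 18 genes of these lists named for their change in LMA against N, all 18 were called in the same direction without N 3 and without the other set, and 13 without the first set (not Aldh18a1, Ero1l, Mthfd2, Psph and Yars). Without N 1 as without N 2, 10 of the 18 were called. Of those lost, Aldh18a1, Cars, Ero1l, Mthfd2, P4hb, Sars and Yars were so in both fits, Psph without N 1 and Ppp1r15b without N 2. With the replicate number as a block, 14 of the 18 were called (not Aldh18a1, Ero1l, Mthfd2 and P4hb), and the same 4 were lost without any 1 LMA sample.

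**Figure D5:**
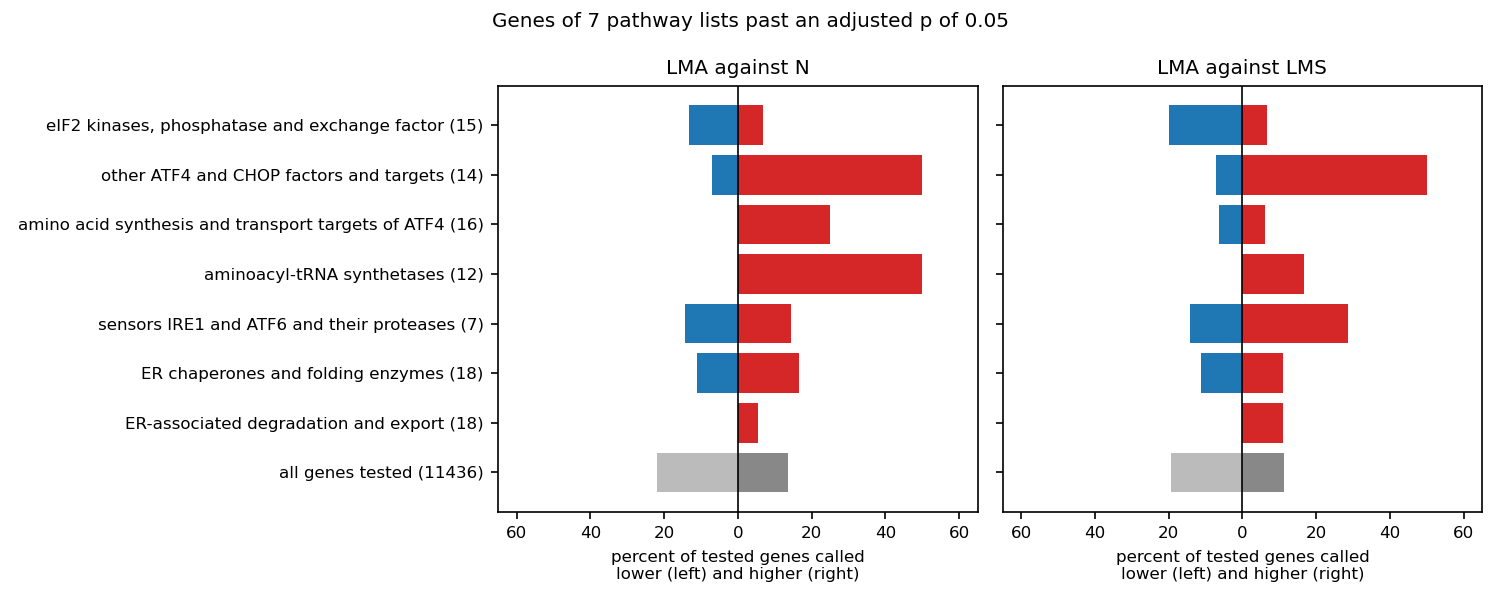
Percent of the tested genes of each list (number tested in brackets) called higher (right) and lower (left) at an adjusted p under 0.05 in LMA against N and LMA against LMS, with all 11436 genes tested in grey. In LMA against N, 7 of 14 other ATF4 and CHOP genes and 6 of 12 synthetases were called higher, beside 13.6% of all genes.

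The genes whose pattern over the 18 samples was most like that of a member were found by the root mean square difference of centred log2(FPKM + 0.5), as a description. Nearest to Ddit3 were Slc15a3 (0.17, 3.97 to 40.8 FPKM), a lysosomal peptide transporter, Prss46 (0.22) and Csf3 (0.22), which encodes the cytokine G-CSF and ranged from 0 to 4.05 FPKM. Tmem106a, Spryd7 and Slc31a1, a copper transporter, were nearest to Chac1 (0.15 each). Nearest to Hspa5 were Lrrc59 (0.06), Farsb (0.07), a subunit of the phenylalanyl-tRNA synthetase, and Spidr (0.08). Nearest to Xbp1 were Mut, the mitochondrial methylmalonyl-CoA mutase, Fh1, the fumarate hydratase, and Hnrnpab (0.08 each).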

How the data were processed

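Each sample was put in its group by its label. The 10 genes and the pathway and marker lists were chosen with earlier results of these data known. Named are every member, of each pathway list up to 3 genes with the largest change called in LMA against N and the gene with the smallest adjusted p in LMA against LMS, the 3 genes most like Ddit3, Chac1, Hspa5 and Xbp1, and markers where their levels stand beside a result.

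The authors sequenced on an Illumina NovaSeq instrument and deposited 1 table per sample, without pooling, with FPKM per gene on the build mm10. Per the labels, the submitters' processing notes name GATK 4.2, and the sources used here give neither aligner nor quantifier. In the deposited TPM column, a score here, assembled loci (not used) already sum to 1000000 before any reference gene is counted. The deposited coverage signal per gene served for read depth and, by its ratio to FPKM, for aligned gigabases. Strandedness is not stated. The tables hold no counts, so no counting intervals were computed.

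Rows with the same gene ID were summed. Tested were protein-coding genes (GENCODE M21) with a mean of at least 0.5 FPKM. The 4 groups were fitted over all 18 samples on log2(FPKM + 0.5) by lmFit and eBayes (with trend) of limma 3.58.1 in R 4.3.3, in place of the t-tests of the study, with Benjamini-Hochberg adjustment within each comparison, a threshold of 0.05, and 95% intervals from the standard error. On simulated data with 200 changed genes of 11436, the fit called 54.5% of changes of 1 on the log2 scale and 78.0% of changes of 2 in LMA against N. The simulated noise was normal, independent between genes and equal in all groups. It did not hold the split of N and LMS, so these percentages may not apply to the real samples. Alternatives were other pseudocounts, filters and scalings, only the compared groups, sample weights, a replicate block, each sample left out, and 2 sets of samples left out that were chosen after seeing the data. Same-numbered samples deviated together in every pair only in LMS against LM (correlations 0.223 to 0.431 over genes, 3 pairs), a hint from the data and not from the design. No 2 of the 153 pairs of samples held identical values. Figures and tables used Python 3.11.15 with pandas 2.3.3, numpy 2.4.6 and matplotlib 3.10.9.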

Additional observations from a re-analysis of the deposited data

Results flagged for a closer look

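Among the 20 sets of values that 10 genes gave in the groups of 6 samples, 1 sample stood apart from the rest of its group. Ddit3 in LMS 1 was at 6.49 FPKM, below the other 5 LMS samples at 9.87 to 10.9 FPKM, with a gap to its neighbour on log2(FPKM + 0.5) of 0.807 of the range of the group, above the 95% critical value of Dixon's test for 6 samples. Chance gives about 1 such sample in 20 sets.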

How the results depend on the processing

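Over 27 called changes of the 10 genes, 540 values were computed under alternatives, of which 489 kept their direction and passed the test, 51 kept their direction only and 0 reversed. Ddit3 passed in every one. Xbp1 and Herpud1 were called in no comparison with all samples and are not among these values. Their direction changed between the sets, as given above. Of the 10 genes, 7 were called in LM against N with all samples, 1 with only the compared groups, and 4 to 9 when 1 sample was left out. In LMS against N, none were called with all samples, 8 with sample weights (a fit that did not fully converge), and 0 to 5 when 1 sample was left out. In LMS against LM, 5 were called with all samples, 10 with sample weights, 10 when N 1, N 2, LMS 2 and LMS 5 were left out, and 8 when the other 5 samples of N and LMS were. The share of all genes called in LMS against LM also rose without either set, as given above. With sample weights, 50 of the 100 pathway genes tested were higher and 29 lower there, against 5 and 14 without weights. Of the 10 genes, 9 were lower and 1 higher there with sample weights. The larger counts are a description and are not read as a result about the 10 genes. With the replicate number as a block, 7, 7, 0, 0, 4 and 7 were called in LM against N, LMA against N, LMS against N, LMA against LM, LMS against LM and LMA against LMS. In LMA against N this lost Asns (adjusted p = 0.054). For the fits with only the compared groups, sample weights or the replicate block, no share of all genes is given. The same holds for the fits with 1 sample left out, except LMS against N in 1 of them, as given above. Whether these counts differ from the rate among all genes was not tested, and they are a description only. The samples share only a number in every comparison, with correlations from -0.642 to 0.906 outside LMS against LM. The scaling by the TPM column shifted the median gene by 0.11 in LMA against N and 0.10 in LMA against LMS, and the median of ratios by 0.11 in LMA against N, which turned 1553 higher and 2501 lower genes into 1776 and 1848 (TPM) or 2158 and 1764 (median of ratios). No called change of the 10 genes changed direction under either. The cause of these shifts was not tested. Low read depth limits Chac1 and Trib3. It also limits Cth of the pathway lists, which was covered 0.693-fold in N 1 and 0.0577-fold in LMS 2.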
